A study of Mus musculus with 16 samples.

Results

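The comparison described here is destabilization of the medial meniscus (DMM) against sham surgery 6 weeks after the operation, in bone from under the cartilage of the mouse medial tibia. It was chosen by the array titles and holds 8 of the study's 16 arrays, 4 after DMM and 4 after sham surgery. All mice were wild-type C57BL6 males, 10 to 12 weeks old at surgery, and each was operated in the same way on both knees. In DMM the ligament that ties the medial meniscus to the tibia was cut. In sham surgery the joint was opened and the ligament seen but left whole, so the sham joint is an operated joint and not an untouched one. Mice were killed 1 or 6 weeks later and received no medication for the arthritis. RNA came from laser-dissected sections, pooled within 1 joint of 1 mouse, and the other knee went to histology. The labels name the tissue subchondral bone, while the protocol speaks of cartilage and the bone beneath it.

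Subchondral bone is the plate of bone and the trabeculae with their marrow that carry the articular cartilage. Osteoblasts lay down its collagen and mineral-binding proteins, osteocytes sit inside it and sense load, and osteoclasts resorb it under the control of the cytokine RANKL and its decoy receptor. DMM makes the meniscus slip under load, and the medial tibia then develops cartilage loss and a thicker, denser bone plate, which is why the procedure serves as a model of osteoarthritis after injury. The question put to these arrays was which transcripts of that bone differ from sham at 6 weeks.

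Values are log2 signals minus the 75th percentile of their array, so a value above 0 is brighter than most probes of its array, and differences are DMM minus sham with their standard errors (SE). All 8 arrays showed transcripts of bone and of marrow. Probes for the osteoblast gene Bglap, the osteocyte genes Sost and Dmp1, the osteoclast genes Acp5 and Ctsk and the erythroid gene Alas2 were well above background on each of them. In this tissue, fewer cells of a type and less RNA per cell cannot be told apart. The arrays lay on 2 slides, each with 2 sham and 2 DMM arrays of 6 weeks (replicates 1 and 2 on slide 1, replicates 3 and 4 on slide 2). Slide was a fixed term of the fits, apart from alternative settings that left it out or took it as a random block. Sham replicate 2 stood apart: its 75th percentile of signal was 429, against 613 to 1149 on the other 15 arrays, and its position on the first principal component was 209.6, against -80.8 to 86.1. Most results at 6 weeks are therefore also given without that array, which leaves 4 DMM arrays against 3.

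No gene passed the threshold. The limma fit on all arrays called 0 of 28250 genes at an adjusted p under 0.05 (percent called 0, lowest adjusted p = 0.978), and the fit without the dimmest sham array called 0 as well (percent called 0, lowest adjusted p = 1). All statements about single genes below are therefore descriptions of levels whose differences are not past the threshold. At an unadjusted p under 0.05 the fit on all arrays held 83 genes higher after DMM (0.294%) and 214 lower (0.758%), together 297, where 1412 would be expected with no difference at all. Without the dimmest array it held 287 higher (1.02%) and 271 lower (0.959%), together 558. Other single arrays moved the count of 297 as well: it was 749 without sham replicate 1, 612 without sham replicate 4 and 1347 without DMM replicate 3. The typical gene had an SE of 0.271 with all arrays and 0.222 without the dimmest.

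Among the bone-forming genes Ifitm5 and Bglap had the largest differences, both higher after DMM, and their promoters are shown to set the 2 beside each other. Each sequence is from RefSeq (GRCm38.p6) and runs from 250 bases before to 50 bases after the start of the gene, with 3 searched motifs in capitals. The motifs were ACCACA, the core of sites for Runx factors, TTACATCA, an element first described in the osteocalcin promoter, and GGGCGG, the GC box bound by Sp factors, each on both strands and with no overlap between matches.
Bglap, chr3:88384417-88384716, minus strand: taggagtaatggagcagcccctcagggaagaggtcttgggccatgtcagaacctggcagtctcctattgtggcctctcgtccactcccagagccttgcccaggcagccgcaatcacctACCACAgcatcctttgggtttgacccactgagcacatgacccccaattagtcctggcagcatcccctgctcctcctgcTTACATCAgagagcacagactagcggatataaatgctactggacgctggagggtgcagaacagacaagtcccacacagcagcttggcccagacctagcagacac
Ifitm5, chr7:140950194-140950493, minus strand: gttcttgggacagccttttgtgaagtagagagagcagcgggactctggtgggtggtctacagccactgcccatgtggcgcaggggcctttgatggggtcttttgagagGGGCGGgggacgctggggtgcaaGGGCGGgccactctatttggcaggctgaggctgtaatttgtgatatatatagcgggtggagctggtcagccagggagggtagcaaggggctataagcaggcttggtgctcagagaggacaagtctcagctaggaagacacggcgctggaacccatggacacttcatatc
The Bglap window held ACCACA starting 132 bases before the start and TTACATCA starting 54 bases before it. The Ifitm5 window held GGGCGG 142 and 119 bases before the start. Among 32851 promoter windows of this length, ACCACA occurred in 16.8%, TTACATCA in 1.1% and GGGCGG in 35.7%, so TTACATCA is the least common of the 3. These are matches of letters, not measured binding.

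Bglap lies in a cluster with Bglap2 and Bglap3, genes for near-identical osteocalcin proteins. Probes of Bglap2 and Bglap3 are shown because they bear on how far the values of these genes are separate. The 60-base probes of Bglap2 (mm9 chr3:88181822-88181881) and Bglap3 (mm9 chr3:88172673-88172732) share a stretch of 25 bases that differs at 2 positions, in capitals, counted from its 5′ end.
Bglap2: aGaccagtatggcttGaagaccgcc
Bglap3: aAaccagtatggcttAaagaccgcc
From Bglap2 to Bglap3 the substitutions are G2A and G16A. Cross-hybridization between copies was not tested, so how far the levels of Bglap2 and Bglap3 are separate readings is not known.

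Ifitm5, a membrane protein of mineralizing osteoblasts, separated the groups completely, as did 0.135% of all genes on the higher side. The sham arrays read -1.02, -0.55, -1.30 and -0.10 and the DMM arrays 0.09, -0.02, 0.17 and 0.29. The lowest DMM array lay above the highest sham array, and the sham arrays spread further apart than the DMM arrays (sham -0.74 ± 0.53 SD, DMM 0.13 ± 0.13, n = 4 each). The difference was 0.87 ± 0.41 (SE), or 1.83-fold, and it was 0.82 within slide 1 and 0.93 within slide 2. It did not pass the threshold (limma adjusted p = 0.978), and it was 1.01 without the dimmest array. Its probe lies at mm9 chr7:148135949-148136008.

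Bglap encodes osteocalcin, a protein of bone matrix made by mature osteoblasts. Its probe (mm9 chr3:88188307-88188366) read 5.95, 6.32, 5.31 and 6.73 after sham and 6.65, 6.65, 7.15 and 6.92 after DMM. Only sham replicate 4 reached into the DMM range. The difference was 0.76 ± 0.47, or 1.7-fold, with 0.51 and 1.02 within slides 1 and 2, and 0.86 without the dimmest array. Bglap2 differed by 0.48 ± 0.37 (0.67 without the dimmest array), and Bglap3, named after its values were seen because of the shared probe stretch, by 0.48 ± 0.36 (0.66). In both copies sham replicates 2 and 4 lay among the DMM arrays. Omd, the bone matrix proteoglycan osteomodulin, read -1.17, -0.97, -1.80 and -0.56 after sham and -0.61, -0.68, -0.56 and -0.05 after DMM, a difference of 0.65 ± 0.49 in which sham replicate 4 lay among the DMM values.

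**Figure D1:**
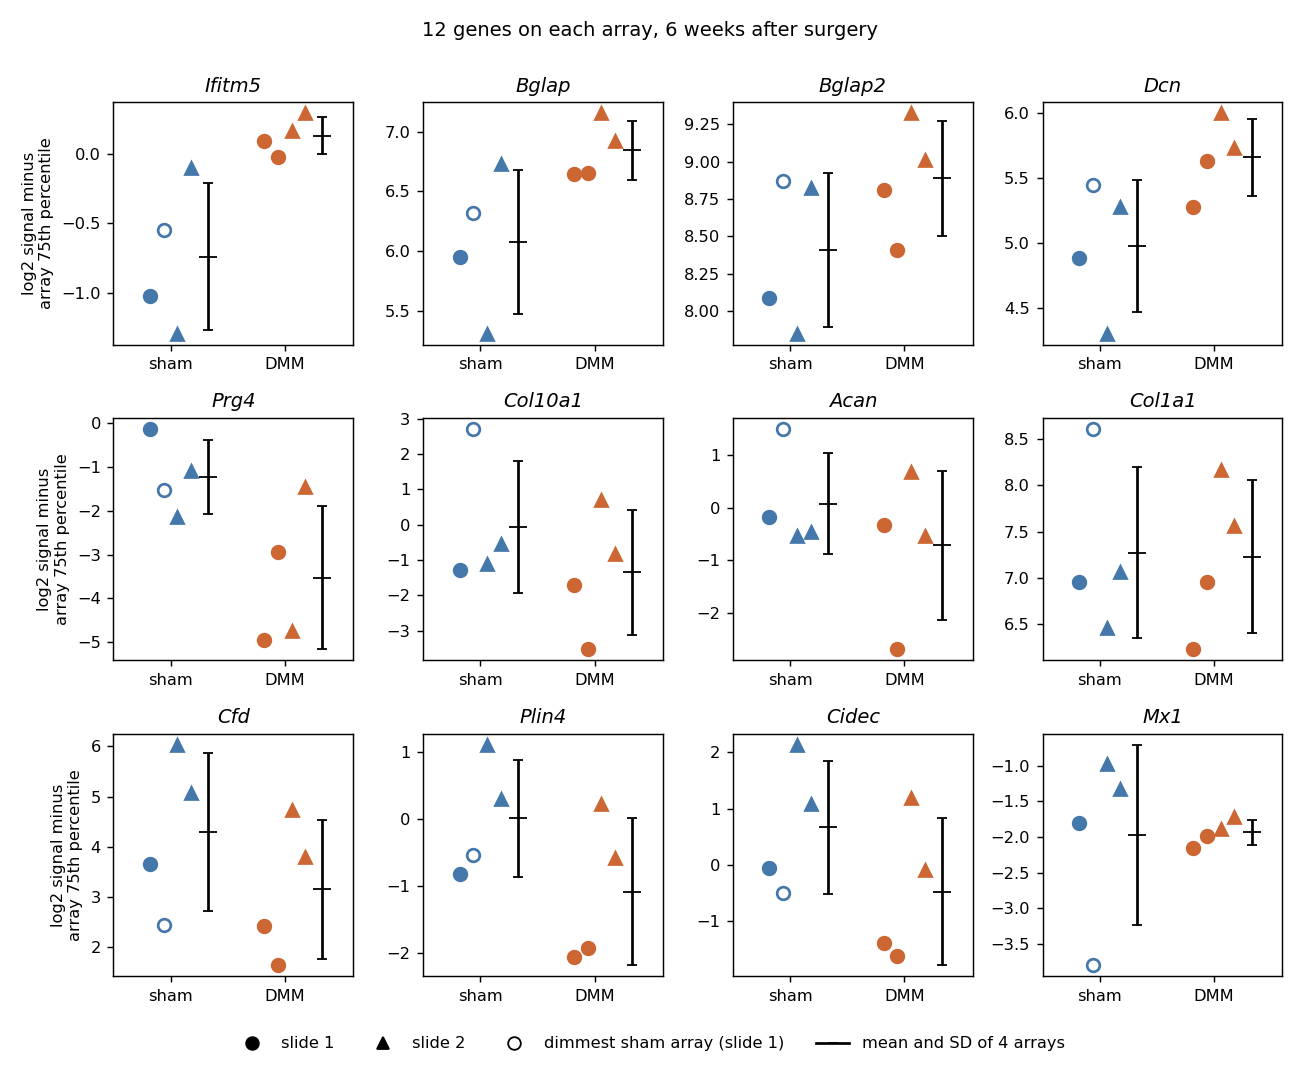
Log2 signal relative to the array's 75th percentile for 12 genes on the 4 sham and 4 DMM arrays of 6 weeks (circles slide 1, triangles slide 2, open circle the dimmest sham array, bars mean and SD of 4 arrays). The 4 DMM arrays lie above the 4 sham arrays for Ifitm5, while for Col10a1, Acan, Col1a1 and Mx1 the open circle is the most extreme sham array.

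The rest of the osteoblast list did not share this regularity. Of 18 matrix and mineralization genes, 8 had higher and 10 lower means after DMM with all arrays (median -0.05, against -0.03 over all genes), and 0 had an unadjusted p under 0.05. Without the dimmest array 17 of 18 were higher and 1, Runx2 (-0.07), was lower (median 0.35, all genes 0.02), with 1 at an unadjusted p under 0.05 (Ifitm5). The median was -0.80 within slide 1 and 0.85 within slide 2, and 14 of the 18 members had opposite signs on the slides. Single DMM arrays moved it too, to 0.20 without replicate 1, 0.10 without replicate 2 and -0.24 without replicate 3. Col1a1, the main collagen chain of bone, shows the pattern. Sham arrays read 6.96, 8.61, 6.46 and 7.07 and DMM arrays 6.23, 6.96, 8.16 and 7.56. The dimmest sham array was the highest of all 8 and the DMM arrays of slide 2 came next. The difference of -0.05 ± 0.47 became 0.40 without the dimmest array, and it was -1.19 within slide 1 and 1.10 within slide 2. Ibsp, bone sialoprotein, moved from -0.08 ± 0.35 to 0.32 and the transcription factor Sp7 from -0.15 ± 0.33 to 0.18 when that array was left out. Phospho1, a phosphatase that starts mineralization, moved from -0.20 to 0.45, and Creb3l1, a regulator of collagen secretion, from -0.08 to 0.58. Runx2, the master regulator of osteoblasts, stood at -0.09 ± 0.25.

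Osteocyte genes were split. Of 10, 4 were higher and 6 lower (median -0.20, or -0.05 without the dimmest array), and 9 of the 10 had opposite signs on the slides. Sost, the Wnt inhibitor that osteocytes secrete, read 0.85, -1.14, 1.36 and 1.48 after sham and -0.56, -0.78, 1.84 and 1.12 after DMM. Both DMM arrays of slide 1 were low and both of slide 2 high, and the lowest of the 8 was the dimmest sham array. The difference was -0.23 ± 0.55 with all arrays, against an SD of 1.22 after sham and 1.28 after DMM. Without the dimmest array it was -0.73 ± 0.51, as the sham SD fell to 0.33 (n = 3), and without DMM replicate 2 it was 0.05. Dmp1, a mineral-binding protein of osteocytes, differed by -0.18 ± 0.37, or 0.004 without the dimmest array.

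Osteoclast genes were nearly level. Of 16 measured out of 17, 8 were higher and 8 lower, with a median of 0.00 (0.06 without the dimmest array). The phosphatase Acp5 differed by 0.02 ± 0.28 and the collagen-degrading protease Ctsk by 0.02 ± 0.43, and without that array by 0.23 and 0.24. Of the 7 genes of the RANKL and M-CSF axis, which drives osteoclast formation, 6 were lower and 1 higher in both fits, with medians of -0.10 and -0.13. RANKL itself, Tnfsf11, differed by -0.08 ± 0.40 (-0.16 without the dimmest array) and its decoy receptor Tnfrsf11b by -0.09 ± 0.35 (-0.12). Csf1, which encodes M-CSF, read 1.28, 1.39, 1.61 and 1.17 after sham and 0.80, 0.71, 1.40 and 1.05 after DMM, a difference of -0.37 ± 0.21 with the same sign on both slides (-0.58 and -0.17). Another Csf1 probe gave -0.004.

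Prg4, which encodes the lubricant lubricin of the joint surface and synovium, had the largest difference in the joint panel. Its probe (mm9 chr1:152297067-152297126) read -0.13, -1.53, -2.13 and -1.09 after sham and -4.95, -2.94, -4.74 and -1.46 after DMM. DMM replicates 1, 2 and 3 lay below every sham array, and DMM replicate 4 lay inside the sham range. The difference was -2.30 ± 0.88, which is 4.93-fold lower after DMM, with -3.11 within slide 1 and -1.49 within slide 2. Leaving out the dimmest array gave -2.32, leaving out DMM replicate 4 gave -2.96 and leaving out DMM replicate 3 gave -1.77. With arrays weighted by how closely they followed the fit it was -1.22. It had an unadjusted p = 0.0198 in the limma fit and an adjusted p = 0.978. The other joint surface and synovial genes did not follow Prg4. Of 11 measured out of 12, 5 were higher and 6 lower, and the median was -0.06 (0.02 without the dimmest array).

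The median of the cartilage list moved further than that of any other of the 36 lists when the dimmest sham array was left out. Of 19 matrix genes measured out of 20, 4 were higher and 15 lower after DMM (median -0.64), with 0 at an unadjusted p under 0.05. Without that array 11 were higher and 8 lower (median 0.07), and without DMM replicate 2 the median was -0.13. It was -1.76 within slide 1 and 0.54 within slide 2. The list mean of the dimmest sham array was 1.49 above the mean of the 8 arrays, and that of DMM replicate 2 was -1.70, while the other 6 lay between -0.23 and 0.66. How much cartilage each dissected section held was not measured, and its part in these values was not tested. Col10a1, the collagen of hypertrophic cartilage, read -1.29, 2.71, -1.11 and -0.54 after sham and -1.72, -3.53, 0.70 and -0.83 after DMM. The highest and the lowest of the 8 arrays were those same arrays, both on slide 1, and the difference went from -1.29 ± 1.08 to -0.18 without the dimmest. Acan, the aggregating proteoglycan of cartilage, read -0.19, 1.495, -0.54 and -0.46 after sham and -0.33, -2.70, 0.69 and -0.54 after DMM, and its difference went from -0.80 ± 0.76 to -0.11. Col2a1, the main collagen of cartilage, went from -0.26 ± 0.58 to 0.26. Among chondrocyte regulators and hypertrophy genes, 1 of 13 was higher and 12 lower (median -0.28), and 6 were higher and 7 lower without the dimmest array (median -0.05). All 13 had opposite signs on the slides. The cartilage regulator Sox9 differed by -0.80 ± 0.51, or -0.32 without that array. Comp, a matrix protein that binds collagen fibrils, read 2.36, 2.46, 3.30 and 3.25 after sham and 2.64, 1.23, 3.07 and 2.82 after DMM. The difference was -0.40 ± 0.31 (-0.40 without the dimmest array, -0.47 and -0.33 within slides), but -0.11 without DMM replicate 2, the lowest of the 8. On slide 1 DMM replicate 1 lay above both sham arrays.

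**Figure D2:**
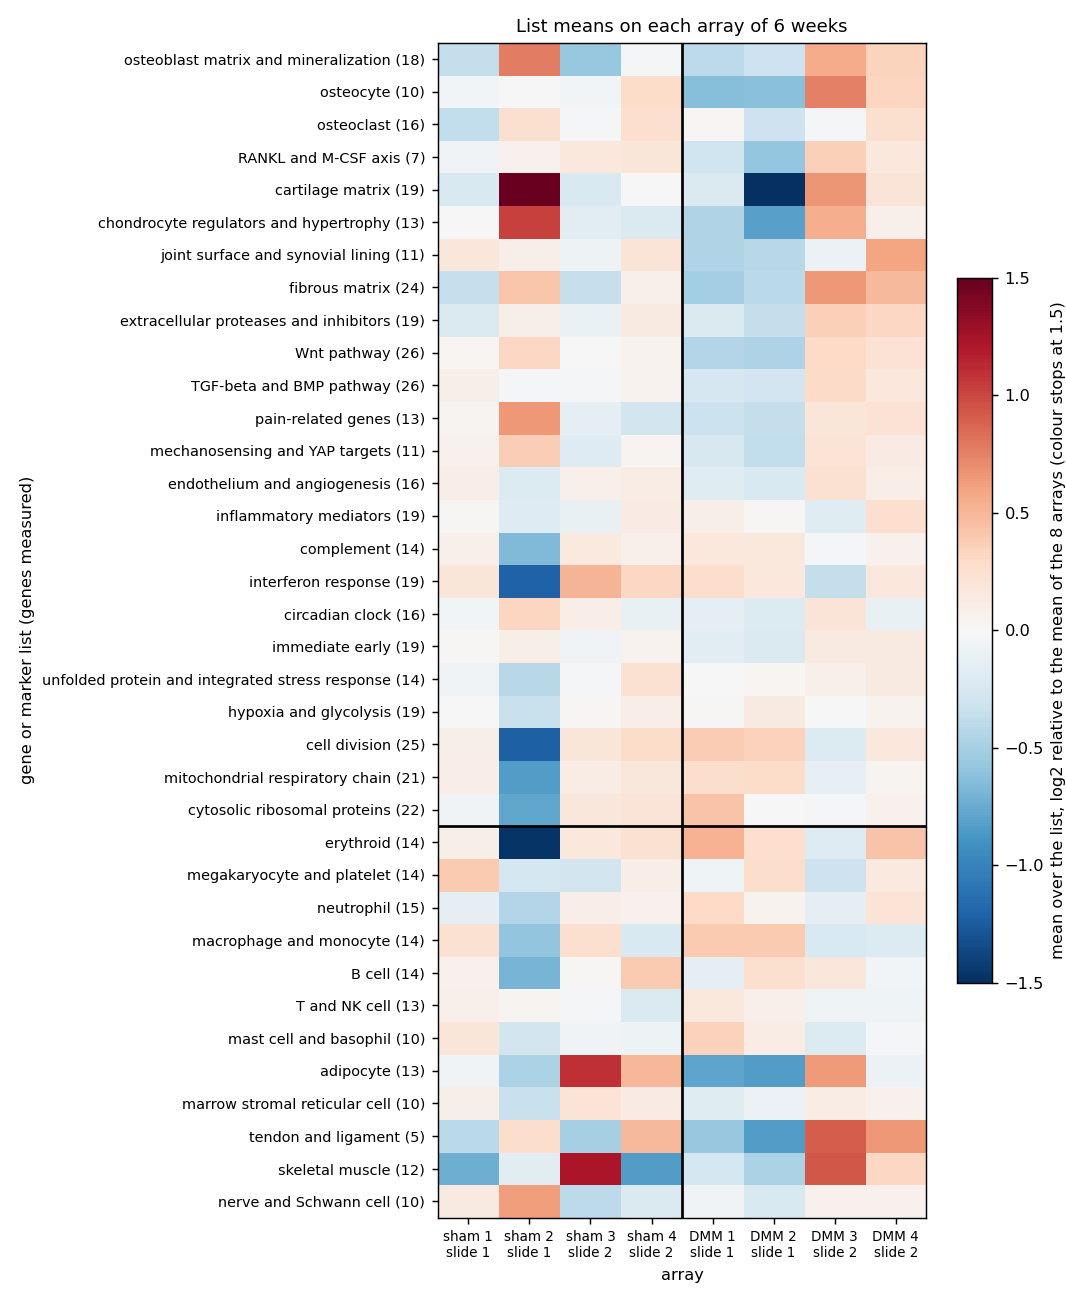
Mean of each gene or marker list on the 8 arrays of 6 weeks, as log2 relative to the mean of these arrays (genes measured in brackets, vertical line between sham and DMM, horizontal line between gene lists and cell type marker lists). Sham replicate 2 reads 1.49 for cartilage matrix, -1.22 for cell division and -1.47 for erythroid genes, and both DMM arrays of slide 1 are low for adipocyte markers (-0.79 and -0.84).

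Markers of adipocytes, fat cells that also live in bone marrow, had mostly lower means after DMM. Of 13, 11 were lower and 2 higher after DMM (median -0.35), and without the dimmest array 12 were lower and 1 higher (median -0.50). The medians within slides were -0.92 and -0.52. The median was -0.08 without DMM replicate 1, -0.23 without sham replicate 3, -0.55 without sham replicate 1 and -0.76 without DMM replicate 3. All 13 were measured, 0 had an unadjusted p under 0.05 in either fit, and 7 had the same sign on both slides. The list mean of the sham arrays ranged from -0.47 to 1.10 and that of the DMM arrays from -0.84 to 0.64, so the groups overlapped. Cfd, the secreted protease adipsin, read 3.67, 2.45, 6.03 and 5.07 after sham and 2.42, 1.64, 4.74 and 3.80 after DMM. On each slide both DMM arrays lay below both sham arrays, and arrays of slide 2 were higher in either group. The difference was -1.15 ± 0.73, or 2.22-fold lower, and -1.60 without the dimmest array. Plin4, a coat protein of lipid droplets, read -0.82, -0.54, 1.10 and 0.30 after sham and -2.06, -1.93, 0.23 and -0.59 after DMM, again with both DMM arrays below both sham arrays on each slide. Its difference was -1.09 ± 0.53 (-1.20 without the dimmest array). Cidec, which enlarges lipid droplets, differed by -1.14 ± 0.76 and Adig, adipogenin, by -0.93 ± 0.61. The droplet coat gene Plin1 differed by -0.76 ± 0.53 and the activin-family receptor Acvr1c by -1.52 ± 0.87. Acvr1c was well above background on 2 of 4 DMM and 3 of 4 sham arrays. The hormone gene Adipoq (0.24 ± 0.48) had the opposite sign, and the lipid carrier Fabp4 (-0.03 ± 0.46) was nearly level. Both were lowest on the dimmest sham array, and without it they stood at -0.33 and -0.50. Skeletal muscle markers, which would show tissue from outside the bone, had list means from -0.83 to 1.22 after sham and from -0.48 to 0.93 after DMM. In both groups replicate 3 was the highest array for the muscle list and for the adipocyte list. The part of outside tissue in the adipocyte values was not tested.

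At 1 week most of these markers had the opposite sign. Of the 13, 10 were higher and 3 lower after DMM at 1 week (median 0.64), and 9 of 13 were higher at 1 week and lower at 6 weeks, which holds for 26.5% of all genes. The difference of the differences, 6 weeks minus 1 week, was below 0 in 11 of 13 (median -0.99, all genes -0.01) and had an unadjusted p under 0.05 in 4 of 13. Across all genes limma called 0 of 28250 for this difference of effects (percent called 0, lowest adjusted p = 1), and 274 (0.97%) had an unadjusted p under 0.05, or 531 without the dimmest sham array. Cfd averaged 1.18 ± 1.10 (SD) after sham and 3.38 ± 1.14 after DMM at 1 week, and 4.30 ± 1.57 and 3.15 ± 1.39 at 6 weeks, n = 4 each. The DMM means of the 2 times were close, and the sham means were far apart. The difference of effects for Cfd was -3.35 ± 1.03 (unadjusted p = 0.00576, limma adjusted p = 1). Plin4 averaged -1.88 ± 0.48 after sham and -0.64 ± 0.83 after DMM at 1 week, and 0.01 ± 0.87 and -1.09 ± 1.10 at 6 weeks, with a difference of effects of -2.34 ± 0.75. For Cidec it was -2.73 ± 1.07 and for Adig -2.01 ± 0.86.

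Outside the adipocyte list, 2 cytochrome P450 genes had the same form. Cyp2f2 averaged -3.59 ± 1.10 after sham and -1.48 ± 0.66 after DMM at 1 week, and -0.52 ± 1.33 and -1.75 ± 1.22 at 6 weeks, a difference of effects of -3.35 ± 0.79 (unadjusted p = 7.99e-04, limma adjusted p = 1). Cyp2e1 read -1.92, -1.11, -1.03 and -1.40 after sham and -2.11, -1.76, -2.23 and -1.88 after DMM at 6 weeks. Sham replicate 1 was the only sham array inside the DMM range. Its 6-week difference was -0.63 ± 0.22 and the difference of effects -0.98 ± 0.32. In the opposite direction stood Cox6a2, a muscle-type subunit of cytochrome oxidase (1.05 ± 0.33), and Ldc1, leucine decarboxylase 1 (1.15 ± 0.37). Prg4 also had opposite signs at the times, with 0.80 ± 0.88 at 1 week and a difference of effects of -3.10 ± 1.24 (unadjusted p = 0.0250, limma adjusted p = 1). At 1 week its sham arrays read -5.37, -1.395, -2.87 and -1.56 and its DMM arrays -1.72, -3.07, -2.13 and -1.06. The first of these sham arrays stood far below the others, and it was lower than every DMM array of 6 weeks.

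**Figure D3:**
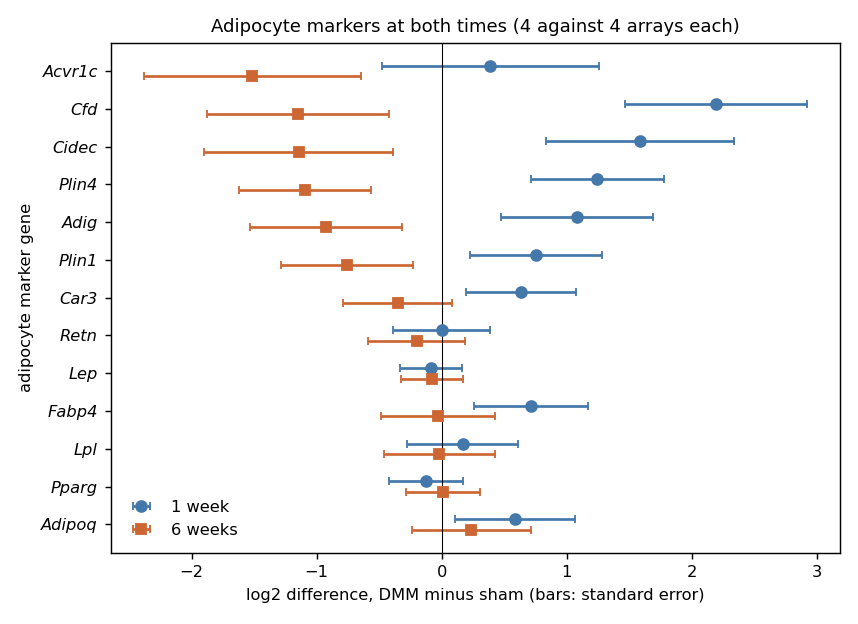
Log2 differences between DMM and sham with their standard errors for the 13 adipocyte markers at 1 week (circles) and 6 weeks (squares), 4 arrays against 4 at each time. At 1 week 10 of 13 are above 0 and at 6 weeks 11 of 13 are below 0, and no single difference passed the threshold.

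Matrix genes of fibrous tissue had more members higher than lower. Of 24 genes measured out of 25, 16 were higher and 8 lower (median 0.08), and 19 higher and 5 lower without that array (median 0.26), with 1 at an unadjusted p under 0.05. Slides disagreed here too (-0.61 and 0.65). Dcn, the small collagen-binding proteoglycan decorin, read 4.88, 5.45, 4.30 and 5.27 after sham and 5.28, 5.63, 6.00 and 5.73 after DMM, a difference of 0.68 ± 0.39 that was higher on both slides (0.29 and 1.07). Only the dimmest sham array reached above the lowest DMM array. Its relative lumican, Lum, differed by 0.68 ± 0.44 (0.33 and 1.03). Eln, elastin, read -3.55, -1.14, -3.24 and -3.21 after sham and -2.80, -2.28, -2.29 and -2.66 after DMM. The dimmest sham array was the highest of the 8 and the other 3 were the lowest, so the difference went from 0.28 ± 0.40 to 0.75 without it (unadjusted p = 0.0221, limma adjusted p = 1).

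Among signalling and protease genes, the counts of the Wnt list moved with the same array and those of the TGF-beta and BMP list did not. Of 26 Wnt pathway genes measured out of 28, 4 were higher and 22 lower (median -0.19), but 12 higher and 14 lower without it (median -0.03). The secreted Wnt antagonist Frzb read -3.94, -3.95, -5.20 and -4.80 after sham and -6.04, -7.25, -4.04 and -4.58 after DMM, low on both DMM arrays of slide 1 and not on those of slide 2. On those 2 arrays of slide 1 it was not well above background, so their values are only upper bounds of its level. Sfrp2, another Wnt modulator, was well above background on 1 DMM and 1 sham array, and Wnt16 did not pass the filter on dim probes. Of 26 TGF-beta and BMP genes, 11 were higher and 15 lower in both fits. Smad6, an inhibitor inside BMP signalling cells, read -1.63, -1.53, -1.05 and -0.68 after sham and -0.83, -0.67, -0.82 and -0.60 after DMM. Sham replicate 4 alone overlapped the DMM values, and the difference was 0.49 ± 0.18 (unadjusted p = 0.0146, limma adjusted p = 0.978). Of 19 proteases and inhibitors measured out of 21, 9 were higher and 10 lower, and 11 higher and 8 lower without the dimmest array. Collagenase 3, Mmp13, differed by -0.24 ± 0.47 (-0.30 without that array), the aggrecanase Adamts5 by -0.23 ± 0.22 (-0.16) and the inhibitor Timp1 by 0.12 ± 0.32 (0.435). Mmp3 did not pass the filter. The matricellular gene Postn differed by 0.23 ± 0.57, by 0.009 without the dimmest array and by -0.33 on another probe. Genes of nerve growth and pain, labelled pain-related genes in the plots, were higher in 3 and lower in 10 of 13 measured (median -0.14, or 0.02 without the dimmest array). Mechanosensing genes were higher in 3 and lower in 8 of 11 (median -0.25, or 0.01 without the dimmest array).

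Inflammatory mediators were higher in 10 and lower in 9 of 19 measured out of 21 (median 0.09, or 0.11 without the dimmest array). The cytokine Il6 differed by 0.09 ± 0.44, or by -0.13 without that array. Cxcl5, a chemokine that draws neutrophils, separated the groups: sham arrays read -2.98, -3.31, -2.72 and -3.24 and DMM arrays -4.23, -3.36, -3.39 and -3.63. Every DMM array lay below every sham array, with a difference of -0.59 ± 0.29 (-0.65 and -0.53 within slides, unadjusted p = 0.0598). Of all genes, 0.35% were separated in this direction. Interferon response genes were higher in 14 and lower in 5 of 19 (median 0.15), and higher in 2 and lower in 17 without the dimmest array (median -0.21). The list mean of that array was -1.21, and those of the other 3 sham arrays ran from 0.18 to 0.505. Mx1, an antiviral GTPase, read -1.80, -3.80, -0.97 and -1.32 after sham and -2.16, -1.98, -1.88 and -1.72 after DMM. The dimmest sham array was far below the other 7 arrays, and without it the difference went from 0.04 ± 0.39 to -0.53 ± 0.16 (unadjusted p = 0.00471, limma adjusted p = 1).

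Genes of proliferating cells and some of the marrow cell markers followed the dimmest sham array closely. All 25 cell division genes were higher after DMM with all arrays (median 0.31), each with opposite signs on the slides (medians 0.91 and -0.26), and 13 were higher and 12 lower without that array (median 0.03). Its list mean was -1.22, where the other sham arrays lay between 0.08 and 0.28. Erythroid markers were higher in 13 of 14 (median 0.57) and in 14 of 14 without it (median 0.19). The erythroid list mean of that array was -1.47, against 0.08 to 0.23 on the other sham arrays and -0.19 to 0.52 on the DMM arrays. Respiratory chain genes were higher in 19 of 21 measured (median 0.24, or 0.00 with 12 of 21 without the array). Ribosomal protein genes were higher in 21 of 22 (0.20, or 0.05 with 18 of 22). Neutrophil markers were higher in 13 of 15 (0.24, or 0.16 with 12 of 15), and macrophage markers in 11 of 14 (0.17, or -0.05 with 6 of 14). Of B cell markers 9 of 14 were higher (0.10, or 0.02 with 8 of 14). Vpreb1, part of the receptor of precursor B cells, went against them: sham arrays read 3.33, 3.25, 3.08 and 3.60 and DMM arrays 2.40, 3.01, 2.85 and 2.66. Every DMM array lay below every sham array, as for 0.35% of all genes. The difference was -0.59 ± 0.49 and the same on both slides (-0.59 and -0.59). Cd8a, the co-receptor of cytotoxic T cells, was higher by 0.55 ± 0.22 (unadjusted p = 0.0239, limma adjusted p = 0.978), but its other probe gave -0.16. Without the dimmest array, on which Cd8a was not well above background, the difference was 0.33 ± 0.17. Over all 36 lists, 545 of 564 named genes were measured, and 2 higher and 1 lower had an unadjusted p under 0.05 with all arrays (0.55% of them, against 1.05% of all genes). Without the dimmest array 3 higher and 2 lower did (0.917%, against 1.98%). Endothelial genes were higher in 7 and lower in 9 of 16, and lower in 14 of 16 without the dimmest array (median -0.13).

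Most of the remaining lists had medians near that of all genes in at least 1 of the fits. Complement genes were higher in 11 of 14 (median 0.20, or 0.01 without the dimmest array), and genes of the unfolded protein response in 10 of 14 (0.14, or -0.02). Hypoxia and glycolysis genes were higher in 13 of 19 (0.14, or -0.03), circadian clock genes in 3 of 16 (-0.13, or -0.01) and immediate early genes in 5 of 19 (-0.07, or -0.04). Platelet markers were higher in 7 of 14 (0.05, or -0.003), T and NK cell markers in 7 of 13 (0.01, or 0.09) and mast cell markers in 7 of 10 (0.06, or -0.11). Markers of marrow stromal reticular cells, which support blood formation, were higher in 3 of 10 in both fits (-0.04 and -0.21). Tendon markers were higher in 2 of 5 measured (-0.05, or 0.29) and nerve markers in 5 of 10 (-0.04, or 0.07). Muscle markers were higher in 7 of 12, and in 11 of 12 without the dimmest array (0.10 and 0.15). Over all genes 46% and 53.7% were higher, with medians of -0.03 and 0.02.

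**Figure D4:**
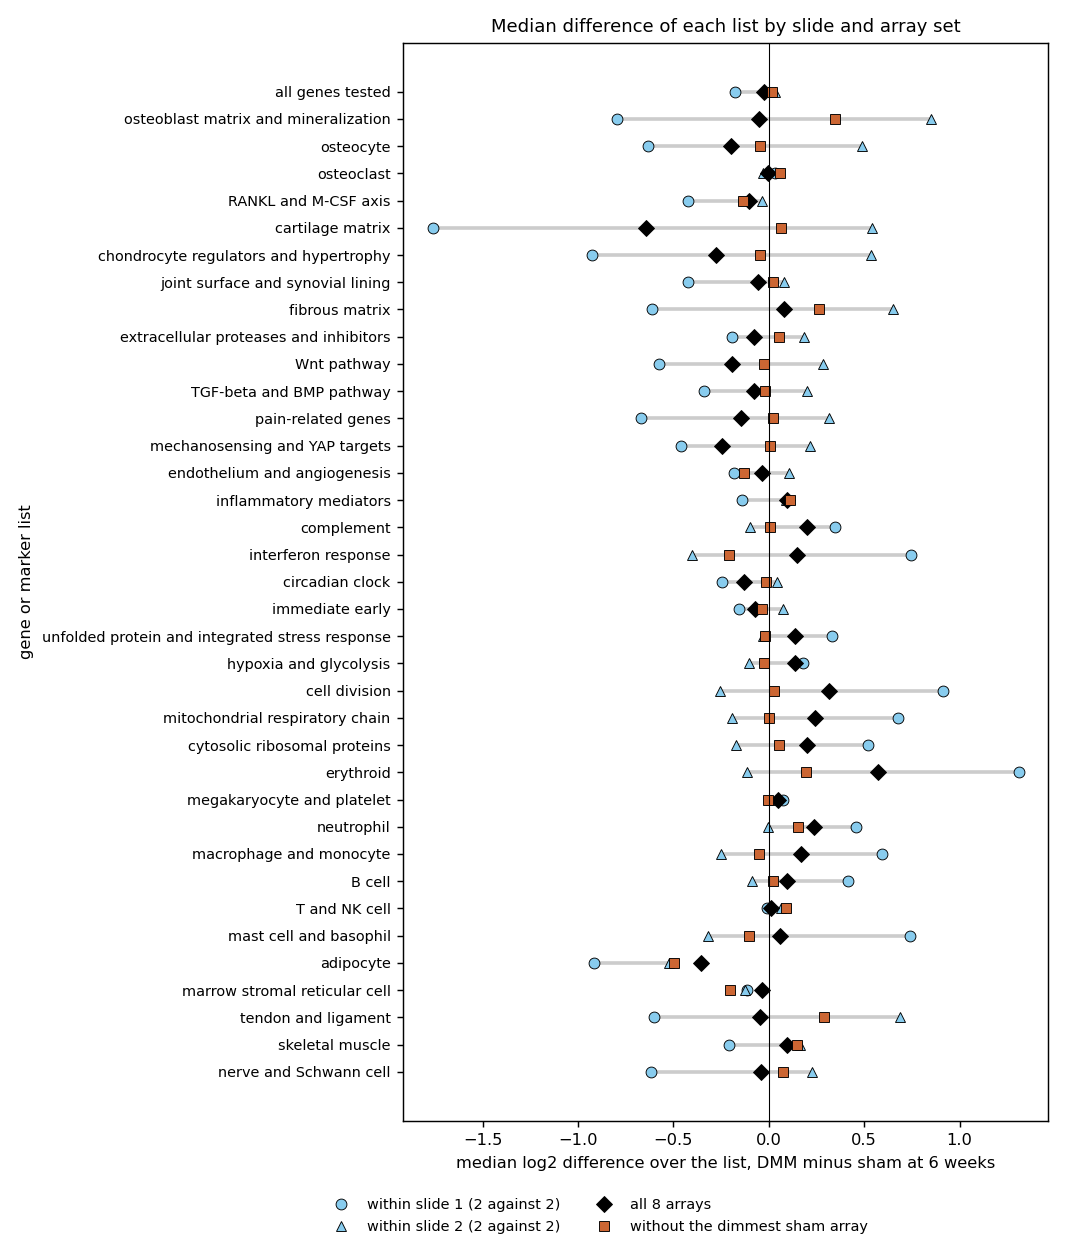
Median log2 difference between DMM and sham at 6 weeks over each list, within slide 1 (circles), within slide 2 (triangles), with all arrays (diamonds) and without the dimmest sham array (squares). In 32 of the 36 lists the medians of the 2 slides lie on opposite sides of 0, and adipocyte markers (-0.92 and -0.52) are among the 4 lists that do not.

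The groups of 4 and 4 arrays did not overlap for 38 genes with higher DMM values (0.135%) and 99 with lower DMM values (0.35%), and 4 against 3 arrays did not overlap for 484 (1.71%) and 550 (1.95%). The 137 genes of the first count became 227 to 1056 when any 1 of the 8 arrays was left out, since fewer arrays separate more easily. The genes named next are those with the smallest p among the ones detected on all 8 arrays with the same sign on both slides, which is how they were chosen. On the higher side, the uncharacterized transcript 5830444B04Rik read -3.74, -3.50, -3.66 and -4.10 after sham and -2.82, -2.21, -3.14 and -1.77 after DMM, a difference of 1.27 ± 0.36 (unadjusted p = 0.00308, limma adjusted p = 0.978). It was 1.11 and 1.43 within slides and 1.35 without the dimmest array. Cox6a2 read 0.91, -0.17, 0.98 and 1.02 after sham and 1.40, 1.44, 1.30 and 1.37 after DMM, a difference of 0.69 ± 0.23 that was 0.44 without the dimmest array. Ldc1 (0.77 ± 0.26), the melanocyte antigen Mlana (0.54 ± 0.20) and the histone gene H2bc22 (0.53 ± 0.23) gave 0.78, 0.53 and 0.495 without that array. Dad1, a subunit of the complex that attaches sugars to proteins, differed by 0.35 ± 0.18 (0.16 without that array), but its other probe gave -0.38. Taco1os differed by 0.31 ± 0.16 (0.22).

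On the lower side the named differences were small. Ppp1r9a, an actin-binding scaffold of neurons, read -2.21, -1.49, -2.28 and -2.21 after sham and -2.88, -2.56, -2.40 and -2.48 after DMM, a difference of -0.53 ± 0.19 that was -0.34 without the dimmest array. Kmt2a, a histone methyltransferase needed by blood stem cells, differed by -0.36 ± 0.15 but by 0.19 on another probe. Probes also disagreed for Ankrd10 (-0.35 ± 0.15 and 0.29) and for Fbxl2 (-0.37 ± 0.16 and 0.22). Etv6, a transcriptional repressor of blood cells, differed by -0.33 ± 0.15 and by -0.33 without the dimmest array. Fam89a (-0.52 ± 0.21) and the small GTPase Rrad (-0.41 ± 0.19) completed the genes of this rule, with the predicted gene Gm10589 (-0.54). The fit without the dimmest array chose other genes, and the difference of each one named here was smaller with all arrays. Ccnjl differed by -0.74 ± 0.23 without that array and by -0.50 with all arrays, and Adhfe1 by -0.83 ± 0.31 and -0.45. For the kinase subunit Prkab2 the values were -0.39 ± 0.15 and -0.29, for Lratd2 -0.42 ± 0.14 and -0.25, and for Smpd4 -0.34 ± 0.13 and -0.205. Med12l gave -0.57 ± 0.23 and -0.51, and Aven -0.32 ± 0.13 and -0.20. On the higher side the channel gene Best2 gave 0.73 ± 0.24 and 0.30, and -0.095 without sham replicate 1 in place of the dimmest. The receptor kinase Grk4 gave 0.50 ± 0.17 and 0.29, and the others were unnamed transcripts. At 6 weeks 2 features were well above background on all 4 sham arrays and on 0 DMM arrays. Of these, Olfr10 is an olfactory receptor gene noticed after its values were seen. It was at least 2.58-fold lower after DMM. That bound sets the sham mean against the dimmest well-measured signal of each DMM array. These features were picked by this pattern, and 4 arrays suffice for the filter. The Olfr10 difference did not pass the threshold (limma adjusted p = 0.978).

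Across all genes the slides gave different pictures of this comparison. Of 28250 genes, 79% had opposite signs within slide 1 and slide 2, and 60.2% did so without the dimmest sham array. At 1 week the share was 44.8%. The within-slide differences correlated across genes at -0.53 (Pearson) at 6 weeks, at -0.145 without the dimmest array, and at 0.082 at 1 week. These values run over genes measured on the same arrays, which are not independent replicates. In all, 44.4% of genes changed sign when that array was left out. Of 263 genes whose difference was over 2-fold with all arrays (93 higher, 170 lower), 201 had the same sign on both slides, and 143 were over 2-fold in both fits with the same sign on both slides. With all arrays the difference is the mean of the within-slide differences. Choosing large differences therefore favours genes whose slides have the same sign.

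**Figure D5:**
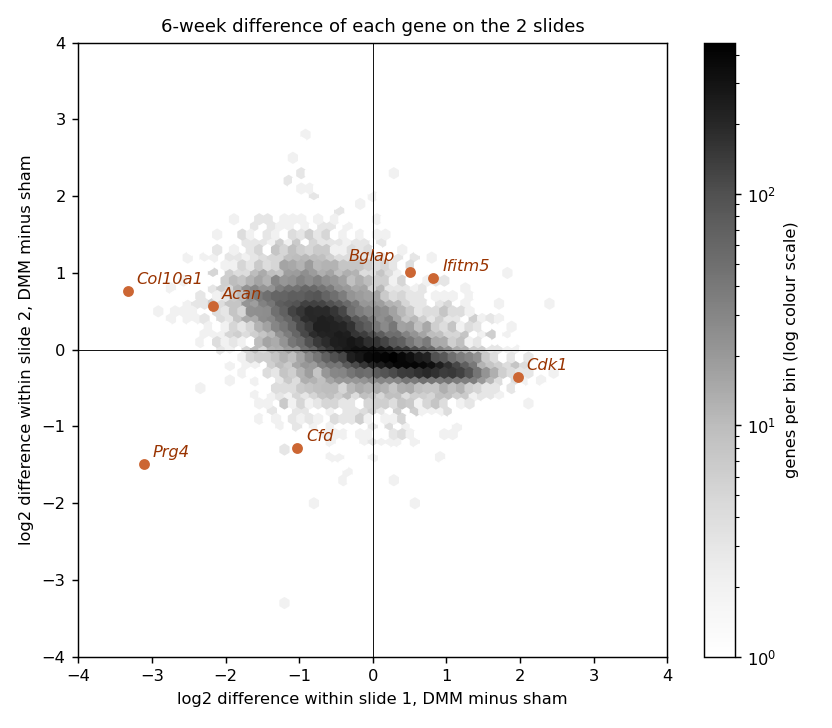
Log2 difference between DMM and sham at 6 weeks for each of 28250 genes, within slide 1 (horizontal) and within slide 2 (vertical), as counts per bin on a log colour scale with 7 genes marked. Most genes lie in the upper left and lower right quadrants, where the slides disagree, while Ifitm5 and Bglap lie in the upper right and Prg4 and Cfd in the lower left.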

How the data were processed

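The deposited scanner files hold background-corrected intensity values for each spot, made with Agilent Feature Extraction 10.7.3.1 per the file headers, and other columns with flags for background, saturation and outlier spots. The authors also deposited a log2 value table of 50815 probes made with limma 3.20.9 per the submitters' processing notes. Its normalization is not given in the sources used here, and it served as an alternative. Control and outlier spots were left out, spots of a probe were averaged, and log2 signals were scaled to the 75th percentile of each array. The 43268 probes well above background on at least 4 of 16 arrays entered, and the brightest probe stood for each of 28250 genes, of which 19754 carry a symbol in current use. Depth has no meaning here; the number of arrays limits the precision, with repeated spots varying by 2.2% to 4.5%, 0 saturated spots and a share of probes well above background between 65.3% and 79.5%.

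limma 3.58.1 in R 4.3.3 fitted group means and slide to all 16 arrays (11 residual and 3.19 prior degrees of freedom), and to 15 without the dimmest sham array, and called genes at a Benjamini-Hochberg adjusted p under 0.05 over all genes. P-values are 2-sided. The fit was tested on simulated data. Each array is a joint of a separate mouse. Panel, members and lists were chosen with earlier results of these data known. The text names a fixed panel of 26 joint genes, up to 8 per direction with the smallest p in each fit among genes detected on all 8 arrays, not overlapping and of the same sign on both slides, up to 4 members per list by p, and up to 4 per direction for the difference of effects. Of these it prints the members that its comparisons use, and 1 panel gene is not reported here. Alternatives changed the scaling, background, filter, slide term, arrays and probe choice. Probe positions are on mm9, and where a probe lies within its gene was not analysed here. Python 3.11.15 and matplotlib 3.10.9 drew the plots.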

Additional observations from a re-analysis of the deposited data

Results flagged for a closer look

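Among the 4 arrays of a group, 19 values lay far from the other 3 of that group, out of 226 values examined for this. Chance alone sets about 1 in 20 such groups apart when the values are independent. These values are not, as they come from the same arrays and include lists beside their own members. Some of the genes were also chosen by the fit without sham replicate 2. That rate is therefore no measure for the count of 19. Of the 19, 15 belong to sham replicate 2, the dimmest array. Its list means, relative to the mean of the 8 arrays, were high for cartilage matrix (1.49) and chondrocyte regulators (1.03). They were low for endothelial genes (-0.20), complement (-0.66), cell division (-1.22), the respiratory chain (-0.84) and erythroid markers (-1.47). Its value for the mineralization gene Phospho1 was 1.00, that for Creb3l1 was 2.62 and that for elastin, Eln, was -1.14, each above the other sham arrays. Ppp1r9a at -1.49 was also above them. It was below them for Cox6a2 (-0.17), Dad1 (2.78), Smpd4 (-0.22) and Taco1os (-3.30). Sham replicate 4 had an osteocyte list mean of 0.28, above the other sham arrays at -0.04 to -0.01.

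After DMM, replicate 2 had a 75th percentile of signal of 1070, where the other DMM arrays lay between 613 and 678. The same array had the lowest value of the cartilage gene Cnmd, chondromodulin (-3.92, others -0.80 to -0.24). DMM replicate 3 had an interferon list mean of -0.36, below the other DMM arrays (0.155 to 0.26).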

How the results depend on the processing

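limma called 0 genes under each of 11 other settings and with each of 8 arrays left out, for the 6-week comparison with and without the dimmest sham array. For the difference of effects it also called 0 under each of these, except the setting with only the 8 arrays of 6 weeks. That setting holds no arrays of 1 week, so this difference was not fitted there. No paired analysis was possible because no label ties any DMM mouse to a particular sham mouse. The count of 297 genes at an unadjusted p under 0.05 became 179 with only the 8 arrays of 6 weeks, 3710 with array weights, 90 with normexp background correction, 498 with no filter on dim probes and 132 with probes well above background on all 16 arrays. It ranged from 218 to 1347 with 1 array left out. The count of 558 without the dimmest sham array became 984, 4142, 348 and 365 under the first 3 of these and the last, and ranged from 327 to 1025. The 137 genes whose groups did not overlap became 68 with normexp and 280 with no filter, and ranged from 227 to 1056. With array weights the osteoblast median became 0.57, the cartilage median -0.085 (from -0.64), the cell division median -0.047 (from 0.31), the adipocyte median -0.65 (from -0.35) and Col10a1 0.017, and the share of higher genes at an unadjusted p under 0.05 went from 27.9% to 56.4%. Dad1 became -0.017 with the mean of its probes. The filter settings test other genes. For array weights and normexp the cause was not tested. Of 74 genes followed, 49 kept their sign under all these settings, 22 changed it with 1 array left out and 22 under another setting. Many of these genes were chosen for a small p or for the same sign on both slides. Their share therefore does not stand for all genes. Leaving out the dimmest sham array alone changed the sign of 44.4% of all genes. With 4 arrays a group and a median SE of 0.271, 0 of the 263 genes over 2-fold passed the threshold, so differences above 2-fold were not told from the spread either.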
